A study of Mus musculus with 2 samples.

Results

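Genes of 7 secreted matrix glycoproteins that had appeared in macrophages of the mouse salivary gland were followed across every class of cells in both strains of the study. The genes were *Spp1*, *Fn1*, *Thbs1*, *Tgfbi*, *Fgl2*, *Npnt* and *Matn2*, 7 of the 50768 genes in the deposited matrices, and all 7 were detected in both libraries. They had been chosen by their measured levels in earlier results of these same cells, in macrophage-like cells and between the strains. Their levels and the ratios between the strains are therefore given as a description, with no test.

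The study asked how cell populations of the gland differ in their matrix and inflammatory transcripts between an autoimmune strain and a control strain. Single-cell RNA was sequenced from submandibular glands, taken with the adjoining sublingual glands, of female mice at 20 weeks of age. The NOD library came from inbred NOD/ShiltJ mice, entered as a genetic mouse model, which develop autoimmune diabetes and lymphocytic infiltration of the salivary glands. The CD1 library came from outbred CD1 mice, the control. No animal was treated, and both libraries carried the same batch number. Epithelial and red blood cells had been removed with antibodies to EpCAM and Ter119, so the cells were a fraction enriched for stroma and not the whole gland. Mice were pooled for each library, 3 going by the labels and 4 going by the methods text. Each strain had 1 library. Strain, pool and library therefore cannot be told apart, and no difference between strains could be tested. The 95% intervals below cover counting error of the unique molecular identifiers (UMIs, each marking 1 captured RNA molecule) and not the spread between animals.

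Matrix glycoproteins bind cells and other matrix components and tell cells where they are and how tightly they are held. Some, such as fibronectin, build fibrils. Others, called matricellular proteins, are released during inflammation and repair and act mainly as ligands of integrins and other receptors. Macrophages are a recognised source of several of them in injured and fibrotic tissue, where fibroblasts and endothelium make them as well.

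The NOD library held 6500 cells (per cell, median UMIs 5719.5 and median genes 2302), and the CD1 library 7014 cells (6495 and 2595). A class was given to a cell when 80% or more of its UMIs for 113 marker genes came from 1 family of cells, and no member served as a marker. Macrophage-like cells numbered 661 in NOD and 2845 in CD1, and T or NK-family cells 3189 and 518. Blood endothelial-like cells numbered 860 and 2516, B-like cells 712 and 6, and fibroblast-like cells 47 and 12, few for a fraction labelled as stromal. The classes are ranges on a marker score: 264 NOD cells (4.06%) and 224 CD1 cells (3.19%) lay just under the limit, at 70% to 80% of their marker UMIs. Since the classes were built on these markers, the marker levels follow from the choice and are no check of the names. *C1qa* stood at 5440 and 5267 CPM (counts per 1e+06 UMIs of the class) in the macrophage-like cells of NOD and CD1. *Cd3e* stood at 563 and 545 CPM in the T-like cells. Under the 80% limit, a macrophage-like cell carried a median of 1 marker UMI of another family in each library, beside 53 of its own family in NOD and 98 in CD1. The libraries shared 18 cell barcodes, of which 1 had the same class in both.

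Macrophage-like cells of NOD were shallower than those of CD1, with a median of 3050 against 7113 UMIs. Fewer than 4000 UMIs were found in 354 of 661 cells in NOD and 1045 of 2845 in CD1, with a median of 8.72% and 9.42% mitochondrial UMIs against 4.18% and 4.77% in the deeper cells. These shallow cells were low in *Malat1*, a nuclear RNA, at 2933 CPM in NOD and 3469 in CD1, where the deeper cells had 16615 and 17227. Each member's strain ratio is given below for the deeper macrophage-like cells as well.

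**Figure D1:**
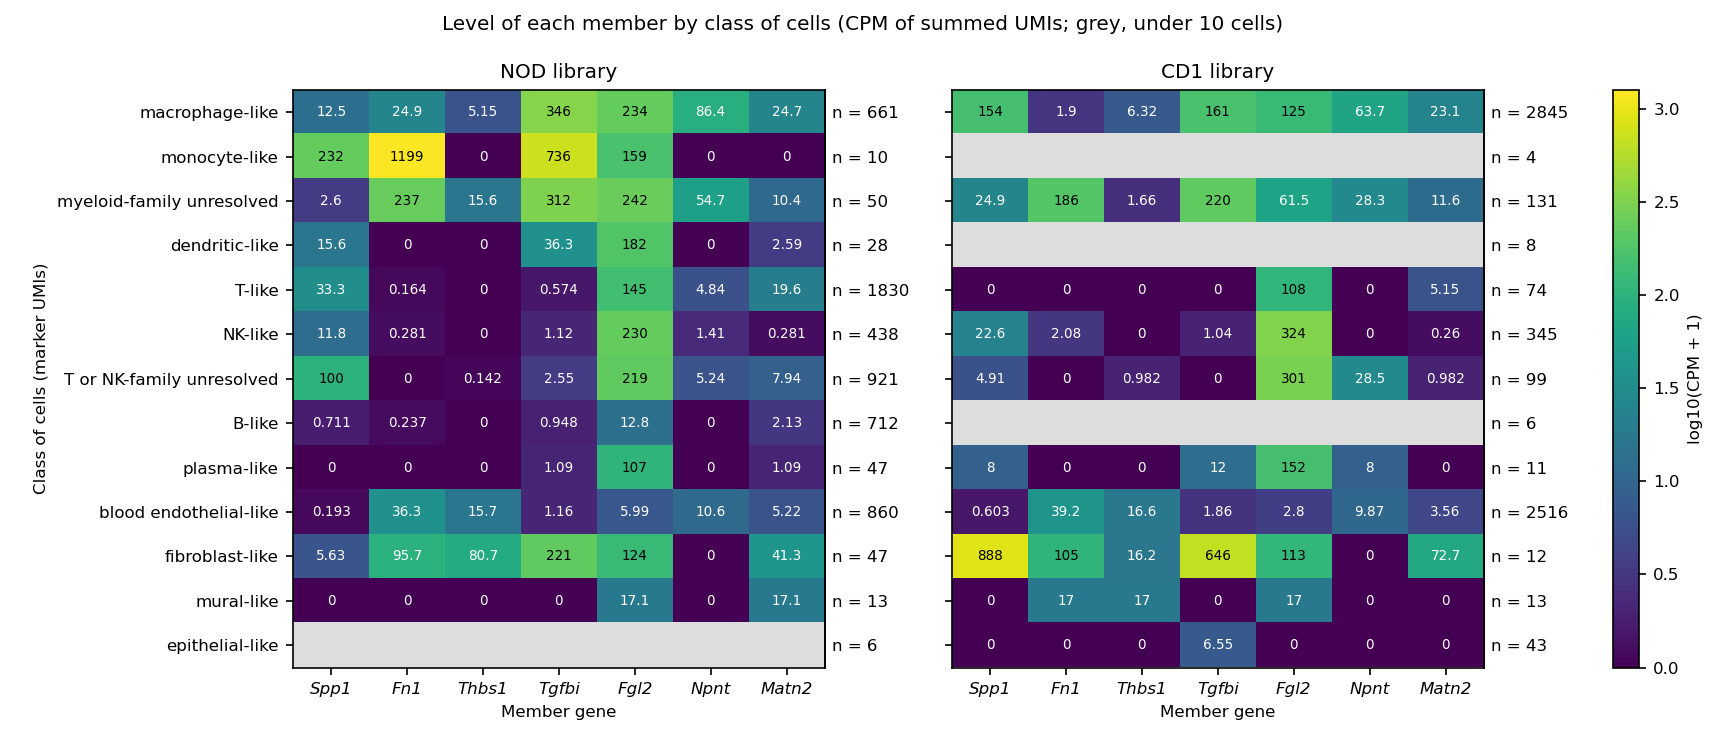
Level of each member (columns) in each class of cells (rows) of the NOD (left) and CD1 (right) libraries, as CPM of summed UMIs printed in each cell of the grid and coloured on a log10(CPM + 1) scale, with the number of cells at the right and classes under 10 cells in grey. *Spp1* stood at 154 CPM in the macrophage-like cells of CD1 and at 12.5 in those of NOD, while *Npnt* was highest in macrophage-like cells in both libraries.

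Of the 7 members, 2 (*Tgfbi* and *Npnt*) reached their highest level in macrophage-like cells in NOD, and 3 (*Spp1*, *Npnt* and *Matn2*) in CD1, among classes of at least 20 cells. Read as a share of all of a gene's UMIs, the picture depended on the library. Macrophage-like cells held 88.2% of the *Spp1* UMIs of CD1 but 3.55% of those of NOD. For *Tgfbi* the shares were 88.2% in CD1 and 66.8% in NOD, and for *Npnt* 76.2% and 55.3%. *Matn2* went from 65.8% in CD1 to 17.3% in NOD, and *Fgl2* from 51.6% to 14.3%. The number of cells enters these shares, since macrophage-like cells were the most numerous class in CD1 and T or NK-family cells in NOD. *Fn1* and *Thbs1* had most of their UMIs outside macrophage-like cells in both libraries: these held 2.70% of the *Fn1* UMIs in CD1 and 11.1% in NOD, and 24.8% and 9.90% of the *Thbs1* UMIs.

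**Figure D2:**
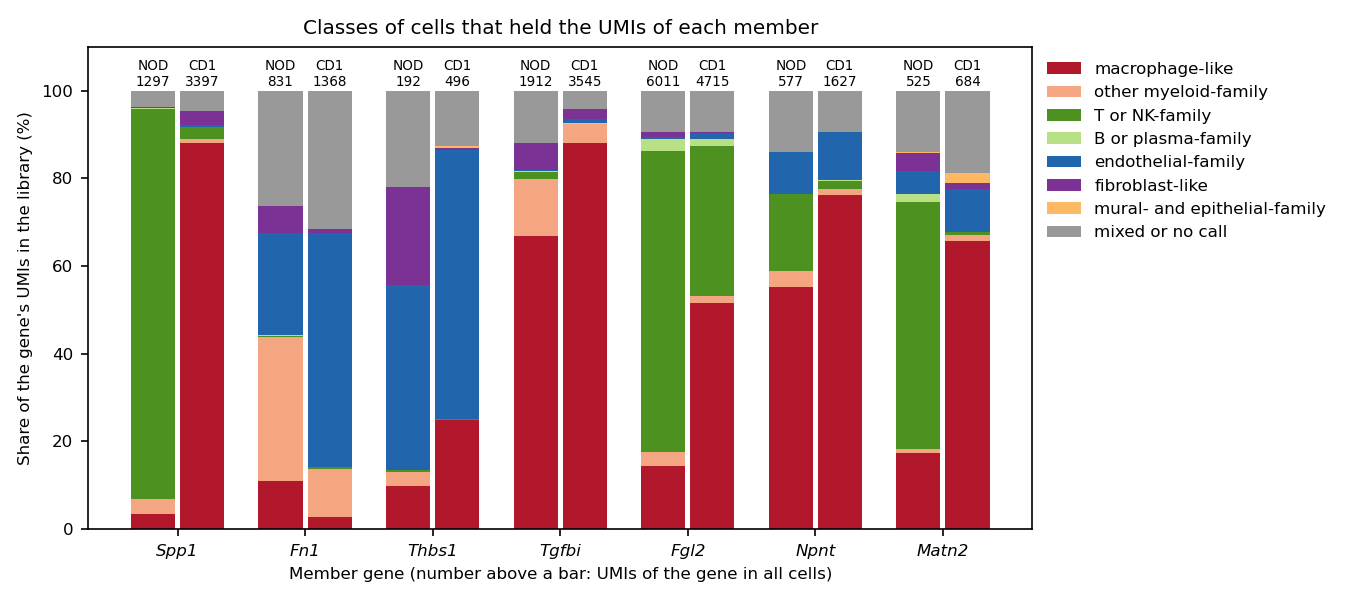
Stacked bars give the share (%) of each member's UMIs that came from each class of cells, with 1 bar per library and the gene's UMIs in all cells printed above it. The *Spp1* bar of CD1 is 88.2% macrophage-like, while that of NOD is 89.0% T or NK-family.

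*Spp1* encodes osteopontin, a phosphorylated matricellular protein that binds integrins and CD44 and that activated macrophages and T cells secrete. In macrophage-like cells it had 46 UMIs in NOD, 12.5 CPM (9.13 to 16.6), and 2996 UMIs in CD1, 154 CPM (149 to 160). The log2 ratio of NOD over CD1 was -3.63 (-4.08 to -3.21), and -3.72 in the cells with at least 4000 UMIs. The intervals were far apart.

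The CD1 UMIs came from many cells. *Spp1* was seen in 981 of 2845 macrophage-like cells of CD1 (34.5%, exact binomial interval 32.7% to 36.3%) and in 31 of 661 of NOD (4.69%, 3.21% to 6.59%). With each cell thinned to 500 UMIs the shares were 5.52% and 0.756%, against 0 of 712 B-like cells of NOD and 0 of 74 T-like cells of CD1, which allow a share of up to 0.421% and 4.05% at that thinned depth. Before thinning, at median depths of 5898 and 7646.5 UMIs, 3 of those B-like cells (0.421%) and 0 of those T-like cells had a *Spp1* UMI. In CD1, 187 cells together held 50% of the UMIs, the highest cell had 28, and 186 cells had 5 or more. No macrophage-like cell of NOD had more than 3. More cells of CD1 had the transcript after thinning as well. The amount per positive cell was not compared at matched depth.

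The order of the strains by CPM was the opposite in 2 lymphoid classes, T-like and unresolved T or NK-family cells, and in the T or NK family as a whole. T or NK-family cells had 1154 *Spp1* UMIs in NOD, 50.6 CPM, and 92 in CD1, 16.9 CPM, a log2 ratio of 1.58 (1.27 to 1.90). These NOD UMIs sat in very few cells: 63 of 3189 cells had any, 4 cells held 50% of the UMIs, and 21 cells with 10 or more held 1050 UMIs (91.0%). The highest carried 323 and 153 UMIs at a depth of 22883 and 21640 UMIs. Their marker UMIs were 94.8% and 97.6% of the T or NK family, with 9 and 4 of the myeloid lists. Of the 21 cells, 1 was among those removed by the doublet caller Scrublet in an alternative. In CD1, 30 of 518 cells of the family had any *Spp1*, a larger share than in NOD. By share of cells the family thus kept the order of the macrophage-like cells, at unmatched depth.

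Within that family, T-like cells had 406 *Spp1* UMIs in NOD, 33.3 CPM in 40 of 1830 cells, and 0 in 74 CD1 cells. Set against a floor of 3 UMIs for CD1 (5.15 CPM) the bound was 6.47-fold higher in NOD, while the counting interval of the log2 ratio began lower, at 2.39. Both take UMIs as independent, but 13 NOD T-like cells held 340 of the 406 UMIs. With so few carriers, 0 in 74 CD1 cells does not show that carriers were rarer in CD1. T or NK-family cells of neither subtype, called unresolved, had 100 CPM in NOD from 16 of 921 cells and 4.91 CPM in CD1. The log2 ratio was 4.35 (3.12 to 5.98), and 2 cells held 50% of the NOD UMIs. NK-like cells went the other way, with 11.8 CPM in NOD and 22.6 in CD1 (log2 ratio -0.94, -1.51 to -0.39). In NOD 1 NK-like cell held 29 of the 42 UMIs, and in CD1 3 cells held 37 of the 87. Both levels were below those of near-empty barcodes of 10 to 100 UMIs (17.1 and 74.5 CPM), and the part of free RNA in the ratio was not tested.

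The genes carried by the *Spp1*-rich lymphoid cells were looked at after their *Spp1* values were seen. Of the 21 NOD cells, 19 had *Cd4*, 20 had *Cd3e*, 17 had *Ifng* and 16 had *Pdcd1*, the gene of the inhibitory receptor PD-1. Among the 3126 T or NK-family cells of NOD with no *Spp1*, 33.0% had *Cd4*, 70.7% *Cd3e*, 29.5% *Ifng* and 14.1% *Pdcd1*. Of the NK marker genes looked at, *Xcl1* was in 13 of the 21, *Ncr1* in 4 and *Eomes* in 3. In the cells with no *Spp1* these were in 39.5%, 27.5% and 17.9%. By class, 13 of the 21 were T-like, 1 was NK-like and 7 were unresolved, and the 7 held 681 *Spp1* UMIs. None of the 21 had *Csf1r*, the macrophage growth factor receptor, and 1 each had *Cd8a* and *Foxp3*. In CD1, 3 T or NK-family cells had 10 or more *Spp1* UMIs, and these 3 had *Ncr1*, an NK receptor, and no *Cd3e*. The 21 cells had a median of 9664 UMIs and the cells with no *Spp1* 6279.5, and the part of depth in these shares was not tested.

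Other classes had little *Spp1*. Blood endothelial-like cells had 0.193 CPM in NOD and 0.603 in CD1. The 888 CPM of the CD1 fibroblast-like cells were 110 UMIs, of which 90 came from 1 cell, and the 10 monocyte-like cells of NOD had 35 UMIs in 1 cell. Barcodes of 10 to 100 UMIs, which mostly hold free RNA, had 74.5 CPM in CD1 and 17.1 in NOD.

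**Figure D3:**
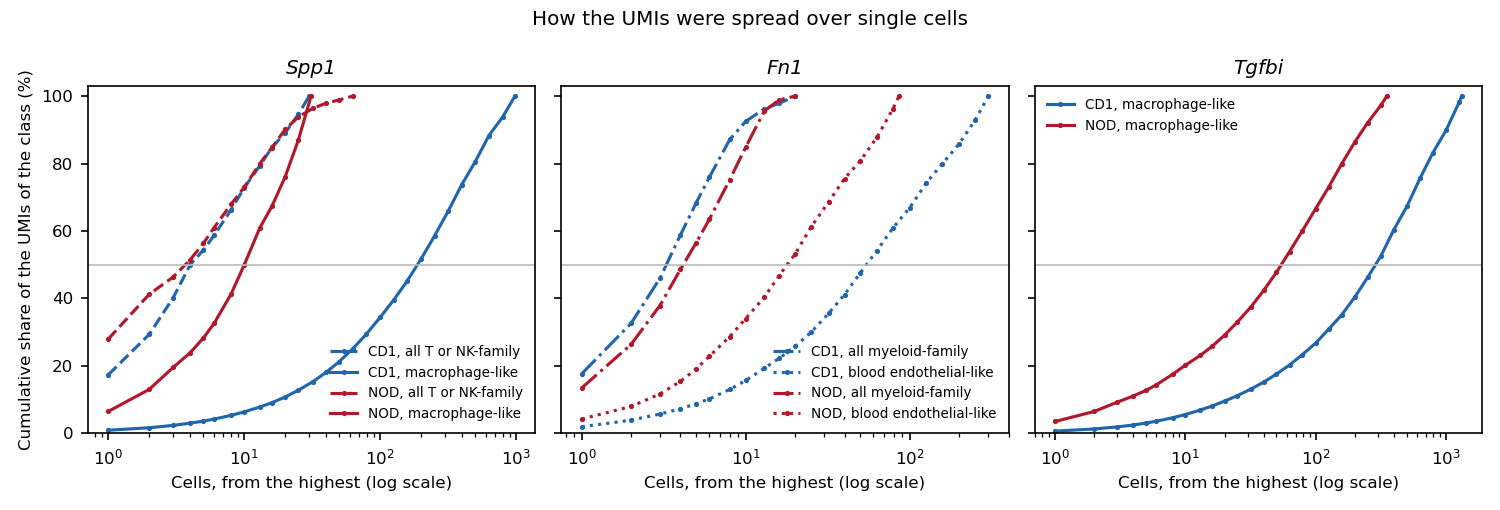
Cumulative share (%) of the UMIs of a class against the number of cells counted from the highest (log scale), for *Spp1*, *Fn1* and *Tgfbi* in the classes and libraries of each legend, with a grey line at 50%. The *Spp1* curve of NOD T or NK-family cells crosses 50% at 4 cells and that of CD1 macrophage-like cells at 187.

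*Fn1* encodes fibronectin, the fibril-forming glycoprotein that integrins assemble into matrix. Macrophage-like cells had 92 *Fn1* UMIs in NOD, 24.9 CPM, and 37 in CD1, 1.90 CPM, a log2 ratio of 3.71 (3.15 to 4.30). In the cells with at least 4000 UMIs it was 3.89 (3.31 to 4.50). The gene was seen in 6 of the 661 cells of NOD and in 9 of the 2845 of CD1, and the highest cell had 49 and 28 UMIs. Without the 5 highest cells of each library the log2 ratio was 0.43, so this strain difference rested on single cells. Near-empty barcodes had 11.4 CPM of *Fn1* in NOD and 24.6 in CD1, the latter above the macrophage-like level of CD1.

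Monocyte-like cells were the richest in *Fn1*, with 1199 CPM in NOD (181 UMIs in 8 of 10 cells) and 861 CPM in CD1 (38 UMIs in 2 of 4 cells). Myeloid-family cells of no resolved subtype had 237 CPM in NOD and 186 in CD1, a log2 ratio of 0.35 whose interval (-0.07 to 0.76) held 0. Taking all myeloid-family cells, 14 NOD cells with 5 or more UMIs held 355 of 364 *Fn1* UMIs, and 10 CD1 cells 173 of 187. *Fn1* in the myeloid family was thus a matter of a few cells in both libraries. These cells, examined after their values were seen, carried the monocyte genes *Ms4a4c* in 12 of 14 and 9 of 10 cells and *Chil3* at 352 and 172 CPM, against 1.62 and 0 in myeloid cells with no *Fn1*. The complement gene *C1qa*, typical of resident macrophages, stood at 191 and 27.5 CPM in them, against 4636 and 5142. *Adgre1*, of the same macrophage marker list, was lower in them too, at 145 and 158 against 496 and 481 CPM. *Mrc1*, also of that list, went the other way, at 232 and 295 against 34.7 and 10.7 CPM, and was seen in 4 of them in each library. *Tgfbi* was present in the same cells, at 601 and 529 CPM.

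Blood endothelial-like cells had nearly the same *Fn1* level in both strains, 36.3 CPM in NOD (86 of 860 cells) and 39.2 in CD1 (301 of 2516 cells), a log2 ratio of -0.11 (-0.35 to 0.13). They held 22.6% of the gene's UMIs in NOD and 52.2% in CD1, over many cells, with 18 and 55 cells for 50% of the UMIs. Fibroblast-like cells had 95.7 CPM in NOD, of which 42 of 51 UMIs came from 1 cell, and 105 in CD1 from 13 UMIs. A further 25.6% and 30.3% of the UMIs were in cells with markers of several families. The highest was a CD1 cell with 167 *Fn1* UMIs, 62 endothelial and 60 myeloid marker UMIs. Of the mixed cells with 50 or more UMIs, 1 in NOD and 2 in CD1, all were among the cells removed by Scrublet.

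*Thbs1* encodes thrombospondin-1, a matricellular protein that activates latent TGF-beta and binds CD36 and CD47. It was led by fibroblast-like cells in NOD, at 80.7 CPM (43 UMIs in 10 of 47 cells), while the 12 fibroblast-like cells of CD1 had 2 UMIs (16.2 CPM). Blood endothelial-like cells had 15.7 CPM in NOD and 16.6 in CD1, with a log2 ratio of -0.09 (-0.46 to 0.27), and held 42.2% and 61.1% of the UMIs. Macrophage-like cells had 5.15 CPM in NOD (19 UMIs in 17 cells) and 6.32 in CD1 (123 UMIs in 105 cells), a log2 ratio of -0.30 (-1.08 to 0.41). In the macrophage-like cells with at least 4000 UMIs it was -0.19 (-0.99 to 0.53). At these counts no difference between the strains was detectable in either class. The level in macrophage-like cells of CD1 was below that of its near-empty barcodes, 10.1 CPM, and T or NK-family cells had 1 UMI in each library.

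*Tgfbi* encodes a TGF-beta-induced protein that binds collagens and integrins. Macrophage-like cells carried it widely: it was seen in 351 of 661 macrophage-like cells of NOD (53.1%, 49.2% to 57.0%) and in 1317 of 2845 of CD1 (46.3%, 44.4% to 48.1%). Its level was 346 CPM (327 to 366) in NOD and 161 CPM (155 to 166) in CD1, a log2 ratio of 1.11 (1.01 to 1.20), and 1.15 in the cells with at least 4000 UMIs. Thinned to 500 UMIs, 13.2% and 6.75% of the cells had a *Tgfbi* UMI, against 0% of the T-like cells of either library. The UMIs were spread over many cells in both libraries, with 55 and 290 cells for 50% of them and 45 and 21 UMIs in the highest cell.

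The gene marked the myeloid family more than macrophages alone. Monocyte-like cells had 736 CPM in NOD (10 cells, the highest 2 with 42 and 25 UMIs) and 204 in CD1 (4 cells). Unresolved myeloid cells had 312 and 220 CPM, which in NOD did not differ from the macrophage-like level beyond counting error. Dendritic-like cells were lower, at 36.3 and 28.5 CPM. Fibroblast-like cells had 221 CPM in NOD and 646 in CD1, the latter from 12 cells. Lymphoid and endothelial cells were near 0, with 0.574 CPM in T-like cells of NOD, and 1.16 and 1.86 in blood endothelial-like cells of NOD and CD1. Near-empty barcodes had 23.7 and 60.8 CPM of *Tgfbi*.

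*Fgl2* encodes fibroleukin, a relative of fibrinogen that activated macrophages carry on their surface as a prothrombinase and that T cells secrete as an inhibitor of immune responses. It was present in myeloid and lymphoid cells alike. In macrophage-like cells it had 234 CPM in NOD (283 cells) and 125 in CD1 (1150 cells), a log2 ratio of 0.90 (0.79 to 1.01), and 0.94 in the deeper cells. In NK-like cells the order was the opposite, with 230 CPM in NOD and 324 in CD1, a log2 ratio of -0.50 (-0.62 to -0.37). Of NK-like cells 47.5% and 75.7% had a UMI, and 10.3% and 16.8% after thinning, against 0.421% of the B-like cells of NOD.

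The lymphoid classes did not all follow NK-like cells. T-like cells had 145 CPM in NOD and 108 in CD1, a log2 ratio of 0.42 (0.06 to 0.81). Unresolved T or NK-family cells had 219 and 301 CPM, a log2 ratio of -0.46 (-0.64 to -0.28). Among classes of at least 20 cells, the 4 highest in NOD (unresolved myeloid at 242 CPM, macrophage-like, NK-like and unresolved T or NK-family) did not differ from their neighbours in the order beyond counting error, while in CD1 NK-like and unresolved T or NK-family cells stood above macrophage-like cells. B-like cells of NOD, at 12.8 CPM, and blood endothelial-like cells, at 5.99 and 2.80 CPM, were the low classes. The 4 neutrophil-like cells of each library had 1299 and 1662 CPM. *Fgl2* was abundant in near-empty barcodes too, at 145 CPM in NOD and 86.6 in CD1. The T-like level of NOD was close to that of its near-empty barcodes, and the part of free RNA in the T-like ratio was not tested.

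The other genes of *Fgl2*-rich lymphoid cells were looked at after the values were seen. Of the 73 NOD cells of the T or NK family with 10 or more *Fgl2* UMIs, 73 had *Cxcr6*, a chemokine receptor of tissue-resident lymphocytes, 41 had *Cd8a*, 46 *Ifng* and 35 *Ncr1*. Of the 40 such cells of CD1, 39 had *Cxcr6*, 1 *Cd8a*, 14 *Ifng* and 34 *Ncr1*. The families differed in these genes without *Fgl2* too: of the cells with none, 19.7% in NOD and 50.6% in CD1 had *Ncr1*, 14.0% and 10.0% *Cd8a*, and 41.5% and 51.8% *Cxcr6*. Their median depths were 9723 UMIs in NOD and 17162 in CD1.

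*Npnt* encodes nephronectin, a basement membrane ligand of integrin alpha8 beta1. Macrophage-like cells were its highest class of at least 20 cells in both libraries. At 95% of marker UMIs in place of 80%, unresolved myeloid cells were highest in both. With a mean of the CPM of single cells, they were highest in CD1. Macrophage-like cells had 86.4 CPM of *Npnt* in NOD (319 UMIs in 127 cells) and 63.7 in CD1 (1239 UMIs in 587 cells). The log2 ratio was 0.44 (0.26 to 0.62), and 0.51 in the cells with at least 4000 UMIs. The UMIs were spread over many cells, with 29 and 140 cells for 50% of them, and the highest cell had 15 and 12. *Npnt* differed more between shallow and deep cells than between strains: the shallow macrophage-like cells had 27.9 CPM in NOD and 15.3 in CD1, against 98.0 and 68.9 in the deeper ones. *Fgl2* and *Matn2* were lower in the shallow cells as well, while *Spp1* had 14.8 against 12.01 CPM in NOD and 118 against 158 in CD1.

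Beyond macrophages, unresolved myeloid cells had 54.7 CPM of *Npnt* in NOD and 28.3 in CD1, and blood endothelial-like cells 10.6 and 9.87, a log2 ratio of 0.11 (-0.36 to 0.55). Near-empty barcodes had 10.0 CPM of *Npnt* in NOD and 36.8 in CD1, so the endothelial levels were at or below them. The monocyte-like, B-like and fibroblast-like cells had no *Npnt* UMI. Unresolved T or NK-family cells had 5.24 CPM in NOD (37 UMIs) and 28.5 in CD1 (29 UMIs), a log2 ratio of -2.44 (-3.18 to -1.69). Both levels were below those of near-empty barcodes. Over the whole T or NK family the log2 ratio was -0.27, with an interval (-0.87 to 0.38) that held 0.

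All 29 *Npnt* UMIs of the CD1 T or NK family came from 18 cells that had *Il1rl1*, the IL-33 receptor, and *Gata3*, a transcription factor of type 2 immunity, and no *Cd3e*. These genes were chosen after the values were seen. Among the T or NK family of CD1, 34 cells had that combination and an *Npnt* level of 86.3 CPM (57.8 to 124), and the other 484 cells had no *Npnt* UMI. In NOD, 38 cells had the combination, with 27 *Npnt* UMIs in 12 of them, 111 CPM (73.3 to 162), while the other 3151 cells had 74 UMIs in 50 cells, 3.28 CPM. The combination was picked from the CD1 cells with *Npnt*, so their level and the 0 elsewhere in CD1 follow from the choice. In NOD most of the *Npnt* UMIs of the family lay outside it, 74 against 27 inside. The 18 CD1 cells also had *Il7r*, *Rora* and *Cxcr6*, and 1 had *Ncr1*.

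*Matn2* encodes matrilin-2, an adaptor that links collagens, fibronectin and laminins into filaments. In macrophage-like cells the strains had close levels, with 24.7 CPM in NOD (54 cells) and 23.1 in CD1 (321 cells), a log2 ratio of 0.09 (-0.25 to 0.42). In the macrophage-like cells with at least 4000 UMIs it was 0.19 (-0.16 to 0.52). No difference was detectable there. The highest cell had 5 and 7 UMIs, and near-empty barcodes had 8.37 CPM of *Matn2* in NOD and 9.20 in CD1.

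T-like and unresolved T or NK-family cells had more *Matn2* in NOD. T-like cells had 239 UMIs in NOD, 19.6 CPM in 126 of 1830 cells, and 3 UMIs in the 74 cells of CD1, 5.15 CPM, a log2 ratio of 1.93 (0.37 to 4.22). Unresolved T or NK-family cells had 56 UMIs in NOD and 1 in CD1, or 7.94 and 0.982 CPM (log2 ratio 3.02, 0.48 to 8.34). Over the whole T or NK family the values were 296 and 5 UMIs, or 12.98 and 0.919 CPM (log2 ratio 3.82, 2.58 to 5.45). NK-like cells, with 1 UMI in each library, were 438 of 3189 cells of the family in NOD and 345 of 518 in CD1, so the makeup of the family enters that ratio. In T-like cells 31 cells held 50% of the UMIs, so more cells took part than for *Spp1*. Of the 157 *Matn2*-positive T or NK-family cells of NOD, 77.1% had *Il7r*, 81.5% *Rora* and 40.1% *Trdc*, the constant chain of the gamma-delta T cell receptor, against 42.1%, 51.5% and 20.1% of the 3032 others. *Cd8a* was seen in 3.82% against 20.3%, and *Eomes* in 3.18% against 18.7%. Median depths were 6327 and 6314.5 UMIs, and these genes too were chosen after the values were seen.

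In other classes *Matn2* stood at 41.3 CPM in fibroblast-like cells of NOD and 72.7 in those of CD1, and at 5.22 and 3.56 in blood endothelial-like cells. The highest single cell of CD1 had 34 UMIs and markers of several families, 186 Schwann and 56 endothelial marker UMIs.

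Side by side in macrophage-like cells, 5 of the 7 members were higher in NOD by the sign of the log2 ratio: *Fn1*, *Tgfbi*, *Fgl2*, *Npnt* and *Matn2*. Past 2-fold, *Fn1* and *Tgfbi* were higher and *Spp1* lower. Among the 14344 genes with at least 20 UMIs in this class, 6.68% were at least 2-fold higher in NOD and 5.98% at least 2-fold lower, 12.7% in all, and the median log2 ratio of these genes was 0.03. Since the members had been chosen with this comparison in view, nothing is read from their count. Without the 5 highest cells of each library *Spp1* stayed past 2-fold (-4.03), while *Tgfbi*, at 0.98, and *Fn1*, at 0.43, did not.

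**Figure D4:**
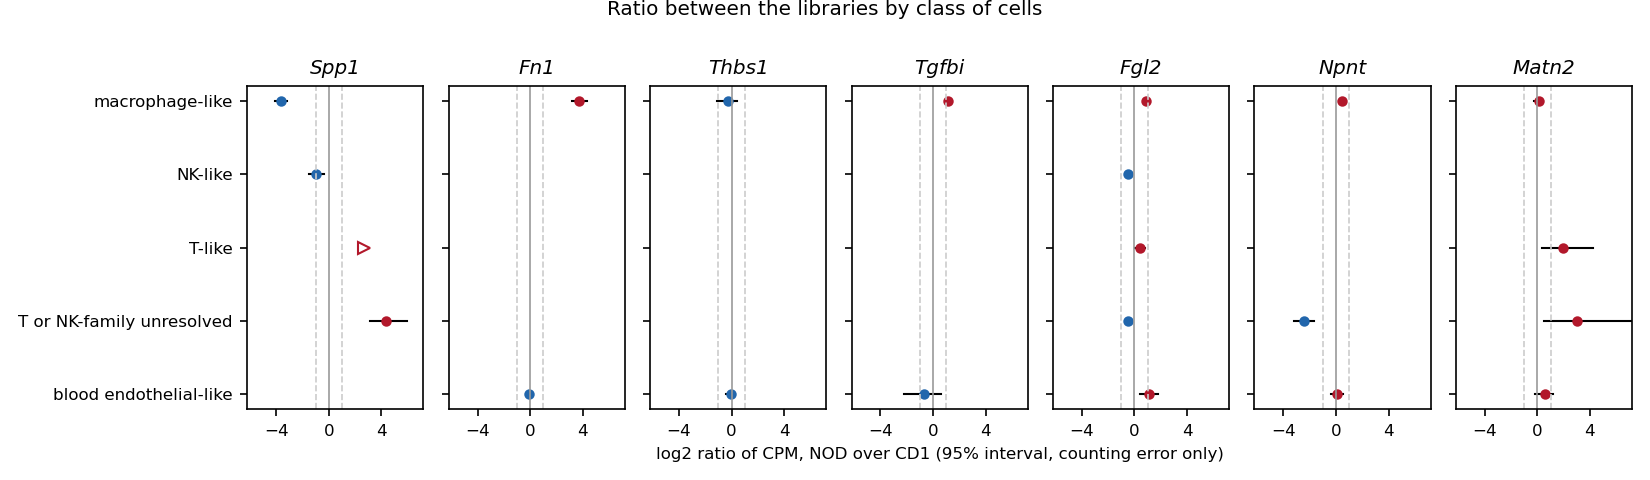
Log2 ratio of CPM of NOD over CD1 for each member (panels) in 5 classes of cells (rows), as points with 95% intervals of counting error, with dashed lines at 2-fold and an open triangle for the bound in T-like cells, where CD1 had no *Spp1* UMI. *Spp1* lies at -3.63 in macrophage-like cells and at 4.35 in unresolved T or NK-family cells, and *Fgl2* at 0.90 in macrophage-like and -0.50 in NK-like cells.

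In blood endothelial-like cells, where 9.98% of genes were past 2-fold, *Fgl2* was past it, with a log2 ratio of 1.10 (0.41 to 1.77) from 31 and 51 UMIs, at levels (5.99 and 2.80 CPM) far below those of the near-empty barcodes (145 and 86.6 CPM), and the part of free RNA in it was not tested. In the same class *Fn1*, *Thbs1*, *Npnt* and *Matn2* had intervals that held 0. In NK-like cells, where 9.93% of genes were past 2-fold, neither *Spp1* nor *Fgl2* was. In T-like cells 21.5% of genes were past 2-fold, and in unresolved T or NK-family cells 16.2%, so the ratios of *Spp1*, *Npnt* and *Matn2* there stand among many others. In unresolved myeloid cells 18.7% were, *Fgl2* among them (242 against 61.5 CPM, log2 ratio 1.98).

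The macrophage-like cells of CD1 were then set out by their *Spp1* UMIs, into 1864 cells with none, 795 with 1 to 4 and 186 with 5 or more. Depth went with the bins, at a median of 4819.5, 8605 and 10688.5 UMIs. Cell cycle genes, summed over 7, went from 77.4 to 188 and 705 CPM over the bins. *Cd9* and *Lgals3*, genes of lipid-handling and phagocytic macrophages, went from 44.1 to 80.4 and 147, and from 64.1 to 88.3 and 184 CPM, and the lipase gene *Lpl* from 135 to 199 and 296. *Trem2*, a lipid receptor of the same list, went the other way, at 379, 346 and 302 CPM.

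The other members moved less over those bins. *Tgfbi* had 153, 161 and 196 CPM, *Fgl2* 116, 138 and 127, *Npnt* 62.9, 66.9 and 57.5, and *Matn2* 21.9, 23.3 and 28.3. The macrophage markers were near level as well, with *Csf1r* at 936, 1009 and 1012 CPM and *C1qa* at 5120, 5439 and 5435. In NOD, the 31 macrophage-like cells with any *Spp1* had *Lgals3* at 707 CPM against 128 in the other 630, *Cd9* at 260 against 102 and *Lpl* at 360 against 109. Cell cycle genes were at 227 and 204 CPM there, so that the step seen in CD1 was not present at that size.

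**Figure D5:**
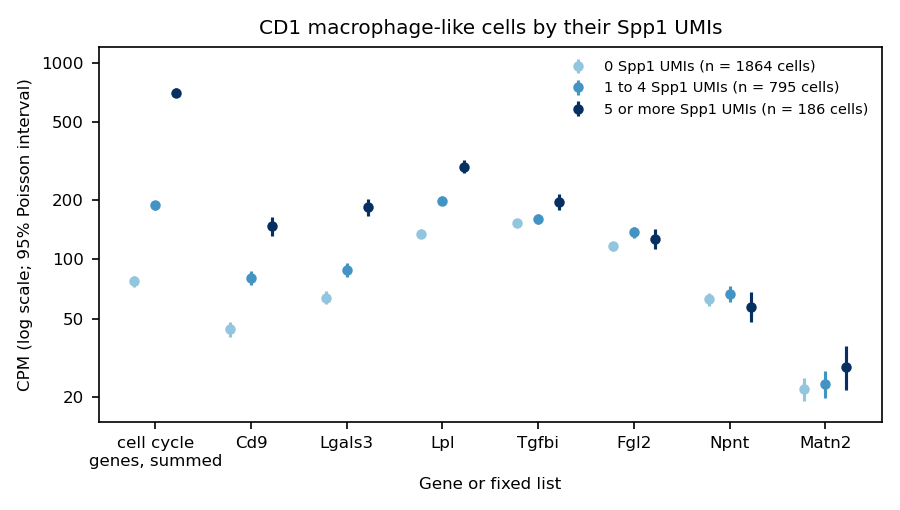
CPM (log scale, 95% Poisson intervals) of summed cell cycle genes, *Cd9*, *Lgals3*, *Lpl* and 4 other members in CD1 macrophage-like cells with 0, 1 to 4 and 5 or more *Spp1* UMIs. The cell cycle genes go from 77.4 to 705 CPM and *Lgals3* from 64.1 to 184, while *Npnt* stays between 57.5 and 66.9.

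Cells with at least 2 of the 7 cell cycle genes, taken as dividing, were 30 of 661 macrophage-like cells in NOD and 123 of 2845 in CD1. In CD1 they had more *Tgfbi* (302 against 149 CPM, log2 ratio 1.02), *Matn2* (37.2 against 21.98, 0.76) and *Spp1* (226 against 148, 0.61) than the others, and less *Fgl2* (97.3 against 127, -0.39) and *Npnt* (47.3 against 65.0, -0.46). In NOD the ratios were in the same directions for *Tgfbi* (0.56, 491 against 334 CPM) and *Npnt* (-1.08, 42.7 against 90.0), and in the other for *Fgl2* (0.39, 299 against 228) and *Matn2* (-0.84, 14.2 against 25.5). The NOD interval of *Matn2* (-2.75 to 0.57) held 0, as did that of *Spp1* (0.57, -1.13 to 1.90). The call needs UMIs of those genes, and depth was not matched between dividing and other cells.

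Genes of the members' receptors were present in macrophage-like cells of both strains. Of 14, 12 had at least 20 UMIs, and 1 was past 2-fold: *Cd44*, a receptor of osteopontin, with 53.1 CPM in NOD against 23.9 (log2 ratio 1.15). The median log2 ratio of the 12 was 0.05. Of the integrin beta genes, *Itgb5* was level between the strains, at 781 and 778 CPM, and *Itgb8* lower in NOD, at 395 and 654. *Itga8*, whose product pairs with beta1 to bind nephronectin, had 107 CPM in NOD and 134 in CD1. The thrombospondin receptor gene *Cd36* had 308 and 474 CPM, and *Fcgr2b*, which encodes a receptor of fibroleukin, 25.7 and 48.1 (log2 ratio -0.90).

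Of 22 other matrix glycoproteins, 10 had at least 20 UMIs in macrophage-like cells, with a median log2 ratio of -0.66. *Ecm1* was past 2-fold higher in NOD (9 and 15 UMIs, log2 ratio 1.66), while *Nid2* (-2.37), *Igfbp7* (-1.26) and *Tinagl1* (-1.25) were past it lower. *Nid2* had 3 UMIs in NOD (interval -4.68 to -0.78), and the interval of *Tinagl1*, with 4 UMIs, held 0. The *Igfbp7* level came from few cells, with 14 cells for 50% of its 732 UMIs in CD1. Igfbp7, nidogen-2 and Tinagl1 are products of the vessel wall, and the endothelial marker UMIs in these cells were not set against them.

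Lists of macrophage states gave a mixed picture. Of 8 lipid-associated genes, all measured, *Gpnmb* (56 and 13 UMIs, log2 ratio 4.51) and *Lgals3* (175 and 86.1 CPM, 1.02) were past 2-fold higher in NOD, and the median was 0.68. The *Gpnmb* value was 1 cell with 55 UMIs, and 7 cells held 50% of the NOD *Lgals3* UMIs. Of 6 inflammatory genes, 5 had enough UMIs, and the chemokine genes *Ccl2* (1.96), *Cxcl10* (2.05) and *Cxcl9* (3.29) were past 2-fold higher, with 12, 6 and 4 NOD cells for 50% of their UMIs. Of 6 perivascular genes, 2 were measured, with *F13a1* at 55 UMIs in 4 cells of NOD and 1 UMI in CD1 (log2 ratio 8.18, 5.64 to 13.5) and *Folr2* at 3 and 56 UMIs (-1.82, -4.14 to -0.20). None of the 3 measured serous cavity genes and none of the 7 cell cycle genes was past 2-fold.

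The genes most like each member were found over 20 sums of a class in a library, each of at least 20 cells, among 16661 genes, by Pearson's r of log2(CPM + 10). The points share libraries and differ in depth, and r is a description. *Tgfbi* was most like *Negr1* (0.99), *Gm42946* (0.98) and *Abca9* (0.97), and *Npnt* most like *Gm52312* (0.95), *Gm39642* and *Car9* (both 0.93). *Thbs1* was most like *Calml4* (0.94), *Mindy4* and *Zfp334* (both 0.93). *Fgl2* was nearest to *Runx3*, *Sema4a* (both 0.90) and *Ptger4* (0.89), *Fn1* to *Gm35551* (0.90), *Ifitm3* (0.88) and *Ilrun* (0.87), and *Matn2* to *Sdk1* (0.86), *Acp2* (0.84) and *Olfml3* (0.83). *Spp1* had the weakest neighbours, *T2*, *Slco4a1* (both 0.79) and *Gm53410* (0.78). Among the members themselves, *Tgfbi* with *Matn2* and *Tgfbi* with *Npnt* had the highest r (both 0.69), and *Fn1* with *Fgl2* the lowest (-0.26).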

How the data were processed

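The authors deposited 1 unfiltered matrix of whole-number UMI counts per library (10X Genomics), made, according to the submitters' processing notes, with Cell Ranger 8.0.0 on GRCm39, with Seurat 5.0.1 and R 4.3.1 named for later steps. The raw counts were used as deposited. Barcodes with at least 500 UMIs and 300 genes were kept as cells; the 50768 gene names were taken from the files. A cell took the family with at least 80% of its marker UMIs, from 2 or more marker genes (113 genes, 21 lists, 11 families), then a subtype by the same limits, otherwise it was called unresolved, mixed or without a call (mixed 368 and 303 cells in NOD and CD1, without a call 437 and 477). UMIs were summed over cells of a class and scaled to CPM, with exact Poisson intervals for levels, Clopper-Pearson intervals for shares of cells and conditional binomial intervals for ratios, at 95%. For thinned shares every cell was drawn down to 500 UMIs. Doublets were not removed except in 1 alternative (Scrublet, scanpy 1.11.5). Cells over 10% mitochondrial UMIs (1583 and 1340) were kept. Total UMIs in the files were 52790319 (NOD) and 56483149 (CD1), of which 43439635 and 49420810 were in cells. Levels were not compared between genes, since the counts are not scaled to length. The members, marker lists and gene lists were chosen with earlier results of these data known. The genes named were all members, every gene of 7 fixed lists past 2-fold in macrophage-like cells with at least 20 UMIs, list genes compared between cells with and without a member's UMIs, and the 3 genes most like each member among those with at least 50 UMIs. Intervals were tried on simulated Poisson counts, the model they assume, so that trial does not cover UMIs clumped in single cells. Analyses used Python 3.11.15 and scipy 1.17.1.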

Additional observations from a re-analysis of the deposited data

Results flagged for a closer look

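For 3 members the direction of the strain ratio differed between classes of cells, with intervals of counting error that did not hold 0. The difference between classes was not tested, since each strain had 1 library. *Spp1* had a log2 ratio of NOD over CD1 of -3.63 in macrophage-like and -0.94 in NK-like cells, and of 4.35 in unresolved T or NK-family cells. In the unresolved class 7 of 921 NOD cells held 681 of the 706 *Spp1* UMIs, so that direction rested on few cells. The counting intervals do not cover such clumping. The NK-like levels of *Spp1* (11.8 and 22.6 CPM) were below those of near-empty barcodes (17.1 and 74.5 CPM), and the part of free RNA in that ratio was not tested. *Fgl2* had 0.90 in macrophage-like cells, 1.98 in unresolved myeloid cells, 0.42 in T-like cells and 1.10 in blood endothelial-like cells, against -0.50 in NK-like and -0.46 in unresolved T or NK-family cells. The endothelial levels of *Fgl2* (5.99 and 2.80 CPM) were far below those of near-empty barcodes (145 and 86.6 CPM), and the part of free RNA in that ratio was not tested. It was not tested in the T-like ratio either, where the NOD level was close to that of near-empty barcodes. *Npnt* had 0.44 in macrophage-like cells and -2.44 in unresolved T or NK-family cells. Over the whole T or NK family its ratio was -0.27 (-0.87 to 0.38). The CD1 *Npnt* UMIs of the family lay in cells with *Il1rl1* and *Gata3* and no *Cd3e*, 34 of 518 family cells in CD1. In NOD such cells were 38 of 3189. The part of the makeup of the class in the -2.44 was not tested.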

How the results depend on the processing

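Under 12 alternatives the strain ratio in macrophage-like cells kept its direction for 6 members, while that of *Matn2*, whose interval held 0, crossed 0. The log2 ratio ranged from -4.03 to -2.97 for *Spp1*, from 0.43 to 5.18 for *Fn1*, from -0.79 to -0.13 for *Thbs1*, from 0.98 to 1.15 for *Tgfbi*, from 0.68 to 0.94 for *Fgl2*, from 0.24 to 0.51 for *Npnt* and from -0.16 to 0.29 for *Matn2*. The lowest *Fn1* value came with the 5 highest cells of each library left out. The number of members higher in NOD was 5, and 4 with all myeloid-family cells, with a mean over cells or without the 5 highest cells. The number of members highest in macrophage-like cells of NOD was 2, but 1 with Scrublet doublets removed, where *Tgfbi* was highest in unresolved myeloid cells, and 4 with the 5 highest cells of each library left out, where *Fgl2* and *Matn2* joined. At 95% of marker UMIs *Npnt* was highest in unresolved myeloid cells in both libraries, and with a mean over cells it was so in CD1. In CD1 the number was 3, and 2 to 4 under the alternatives. The alternative of at least 4000 UMIs was chosen after seeing the data. No paired analysis was possible because each strain had 1 library. The number of libraries limits every comparison of strains, and few cells limit the fibroblast-like, monocyte-like and CD1 T-like values.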
